A study of Danio rerio with 5 samples.

Results

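The Mef2 transcription factors and the class IIa histone deacetylases were followed in neuroblastomas of *MYCN* transgenic zebrafish with 2 *lmo1* genotypes, from which EGFP+ cells had been sorted. The genes were taken by symbol from a list of 9, namely *mef2aa*, *mef2b*, *mef2ca*, *mef2cb*, *mef2d*, *hdac4*, *hdac5*, *hdac7a* and *hdac9b*, by their names alone. Of these, 8 symbols matched a row among the 30647 gene rows of each library, 5 Mef2 factors and 3 class IIa deacetylases. The symbol *hdac7a* matched none and is not analysed here. A row named *HDAC7* was found, but nothing in the sources pairs it with *hdac7a*, so it is described as a relative outside the list, as are *mef2ab* and *hdac7b*.

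The study asked how a regulatory base in the first intron of *lmo1*, which encodes a LIM-only transcriptional coregulator, affects neuroblastoma arising in fish with a *MYCN* transgene. All tumors compared here carried the transgenes dβh:EGFP and *MYCN*, both driven by the dopamine β-hydroxylase promoter, which is active in the sympathoadrenal lineage. The 3 *lmo1*-/- libraries came from fish with a CRISPR-Cas9 deletion in an *lmo1* exon that introduces a premature stop. The 2 *TATA/TATA* libraries came from fish homozygous for a TALEN-mediated knock-in that replaces the first base of the conserved binding site in that intron. By design the knock-in also changes 2 other bases, on the 5' side of that base. The study describes its zebrafish as derived from the AB strain and the fish whose tumors were sorted as juvenile. Each genotype is represented by 1 edited line, and no treatment was applied. The age of the fish behind each library is not given beyond that stage in the sources used here. *GATA/GATA* tumors are not analysed here, so each fold change is *TATA/TATA* over *lmo1*-/- and neither genotype is an unedited control. Nothing in the labels says that the libraries of a genotype came from separate fish, so the p values measure the spread between these libraries.

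Mef2 proteins are MADS-box transcription factors that bind AT-rich DNA, and they are best known for their work in muscle, neurons, lymphocytes and myeloid cells. Class IIa deacetylases have little catalytic activity of their own. They bind Mef2 through an N-terminal segment, bring in a corepressor complex with its catalytic subunit HDAC3, and so keep Mef2 target genes low. Calcium-activated kinases, salt-inducible kinases and protein kinase D phosphorylate them, 14-3-3 proteins hold the phosphorylated form in the cytoplasm, and Mef2 is then free to activate its targets. In mammals *Hdac9* is itself a target of MEF2, as are *Nr4a1* in T cells and *Jun*.

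Between 48144549 and 55782865 reads were counted on genes per library. Expression is given as RPKM, in which reads are divided by exon length and by the mapped reads of the library, and 1 read on 1 kb of exon was worth 0.0129 to 0.0156 RPKM. Ribosomal protein genes took 34.8% to 42.8% of all counts in *lmo1*-/- against 21.5% to 21.9% in *TATA/TATA*. In RPKM, 54.2% of the 13484 tested genes had both *TATA/TATA* values above all 3 *lmo1*-/- values. Tests used edgeR's quasi-likelihood F-test on counts with TMM scaling, which allows for a difference in composition between libraries. On this scale the median log2 fold change of all tested genes was -0.05, against 0.41 when the counts were scaled to the totals behind the authors' RPKM. *lmo1* itself had 24.6, 21.0 and 41.9 RPKM in *lmo1*-/- against 13.6 and 12.7 RPKM in *TATA/TATA* (log2 fold change, -1.58 ± 0.25 SE; edgeR adjusted p = 0.0047, and 0.051 without *TATA/TATA* replicate 2). Reads over the whole gene do not measure a small exonic deletion, so this level does not check the labels. Of 21 tested sympathoadrenal markers 3 rose and 5 fell (edgeR adjusted p under 0.05), beside 19.9% and 16.7% of all tested genes. Among those that fell, the enzymes *dbh* and *th* were abundant in every library (369 to 688 and 454 to 884 RPKM). Both fell in *TATA/TATA*, with log2 fold changes of -1.02 and -1.0 (edgeR adjusted p = 0.0047 and 0.0087). The call of *th* was lost with the authors' library totals (adjusted p = 0.095), and both were lost without *TATA/TATA* replicate 1 (0.068 and 0.107) or replicate 2 (0.0999 and 0.11).

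In *TATA/TATA* tumors *mef2cb* was about 20-fold higher than in *lmo1*-/- tumors and *hdac9b* about 11-fold higher, with fitted folds of 19.6 and 11.2. *mef2b* was 6.74-fold higher, whereas *mef2d*, the most abundant member in both genotypes, was 1.48-fold higher and missed the threshold. Of the 7 members that reached 1 RPKM in 2 or more libraries, 3 rose (edgeR adjusted p under 0.05), which are 2 of the 4 tested Mef2 factors and 1 of the 3 class IIa deacetylases. With edgeR 0 of them fell, also at an unadjusted p under 0.05, and with DESeq2 0 fell as well. Across all tested genes 19.9% rose, 16.7% fell and 36.6% changed in either direction. The 3 members that rose reached the filter only through the 2 *TATA/TATA* libraries, in which they are high, so nothing is read from their count. Fewer genes in all were called without *TATA/TATA* replicate 1 or 2 (1954 and 1851 of them, against 4933), and 2 members then passed. The median log2 fold change was 1.67 over the 8 genes found, 2.12 over the Mef2 factors and 1.23 over the class IIa deacetylases. These medians mix 2 fits, since *mef2ca*, under the filter, took its value from the fit of all genes with a count. The Mef2 median is the value of *mef2ca*, and the class IIa median is that of *hdac5*, which missed the threshold.

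**Figure D1:**
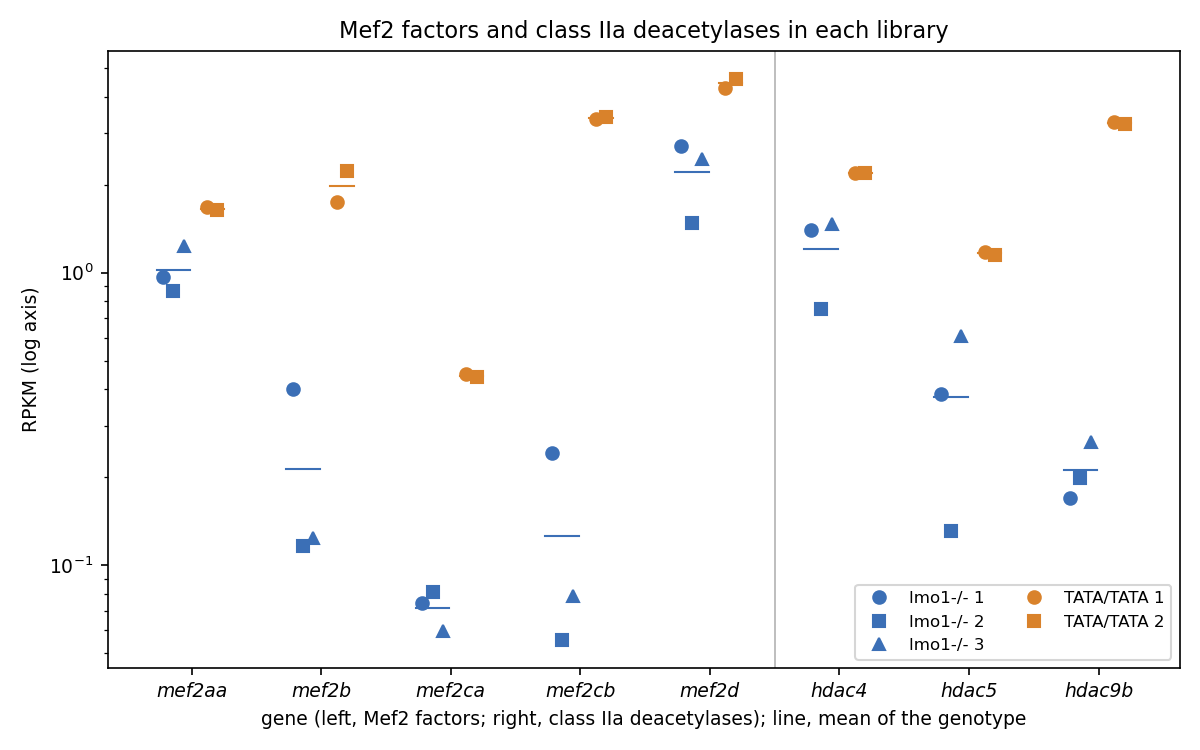
RPKM of the 8 genes in each library on a log axis, with lmo1-/- libraries in blue, TATA/TATA libraries in orange and a line at the mean of each genotype. All 8 genes have both TATA/TATA values above all 3 lmo1-/- values, as do 54.2% of the tested genes. The widest gaps are those of mef2cb (3.34 and 3.41 against 0.0557 to 0.243 RPKM) and hdac9b (3.23 and 3.28 against 0.170 to 0.264 RPKM).

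All 8 genes had both *TATA/TATA* values above the *lmo1*-/- values, in RPKM and in TMM-scaled CPM. This was true of 54.2% of the tested genes in RPKM and of 32.3% in TMM-scaled CPM. *mef2ca* is not among the tested genes, and *mef2aa*, *mef2b*, *mef2cb*, *hdac5* and *hdac9b* reached the filter only through *TATA/TATA*. Nothing is therefore read from this count. By mean RPKM the order in *TATA/TATA* was *mef2d* (4.44), *mef2cb* (3.37), *hdac9b* (3.25), *hdac4* (2.19), *mef2b* (1.98), *mef2aa* (1.66), *hdac5* (1.16) and *mef2ca* (0.445). In that order only *hdac4* and *mef2b* had overlapping values. The order in *lmo1*-/- was *mef2d* (2.21), *hdac4* (1.2), *mef2aa* (1.02), *hdac5* (0.376), *mef2b* (0.214), *hdac9b* (0.211), *mef2cb* (0.126) and *mef2ca* (0.0716), and all neighbours overlapped except *mef2d* with *hdac4* and *mef2aa* with *hdac5*. Ranked among all tested genes, the mean RPKM of *mef2cb* lay at percentile 4.2 in *lmo1*-/- and at percentile 36.7 in *TATA/TATA*. Percentiles 36.3 and 45.3 were found for *mef2d*.

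*mef2cb* encodes 1 of the 2 zebrafish Mef2c proteins, counterparts of the mammalian factor needed for heart, skeletal muscle, neurons and B lymphocytes. It had 0.243, 0.0557 and 0.0787 RPKM in *lmo1*-/- against 3.34 and 3.41 RPKM in *TATA/TATA*. The underlying counts were 81, 18 and 29 against 1310 and 1279, so replicate 1 of *lmo1*-/- stood above the other two but far below both *TATA/TATA* libraries. The log2 fold change was 4.29 ± 0.60 SE (edgeR adjusted p = 0.0034), and the gene stayed past the threshold in all 14 alternatives in which it was tested, between 1.96 and 5.20, the latter without *lmo1*-/- replicate 1.

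Its paralog *mef2ca* was much weaker and lay under the filter on low values. It had 0.0742, 0.0809 and 0.0595 RPKM in *lmo1*-/- and 0.449 and 0.441 RPKM in *TATA/TATA*, from 35, 37 and 31 against 249 and 234 counts. In the fit of all 25459 genes with a count, where 15.0% of genes were called higher, its log2 fold change was 2.12 ± 0.40 SE (edgeR adjusted p = 0.0074). With *TATA/TATA* replicate 1 or 2 left out the adjusted p was 0.11 in each case. Within a library, the ratio of *mef2cb* to *mef2ca* was 3.27, 0.688 and 1.32 in *lmo1*-/- and 7.44 and 7.73 in *TATA/TATA*. The 2 paralogs were thus at similar levels in 2 of the 3 *lmo1*-/- libraries, and *mef2cb* exceeded *mef2ca* in both *TATA/TATA* libraries.

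*mef2b* encodes the Mef2 protein whose human counterpart is known for its role in germinal center B cells. It had 0.400, 0.117 and 0.124 RPKM in *lmo1*-/- and 1.75 and 2.22 RPKM in *TATA/TATA*. As for *mef2cb*, replicate 1 was the highest of the *lmo1*-/- libraries. The log2 fold change was 2.75 ± 0.59 SE (edgeR adjusted p = 0.014). The call was lost without *lmo1*-/- replicate 2 (adjusted p = 0.053), without *TATA/TATA* replicate 1 (0.052) and without *TATA/TATA* replicate 2 (0.082), with log2 fold changes of 2.51, 2.93 and 2.55. Without *lmo1*-/- replicate 1 the log2 fold change was 3.58 (adjusted p = 0.0023). The study names *mef2b* among the mesenchymal transcription factors it looked at in these same tumors, so the direction found here is no independent evidence. The reference tables used for names give "mef2b" also as a synonym of its neighbour *borcs8*, a lysosome positioning gene, but the files list them as separate rows. *borcs8* had 3.64, 5.83 and 8.09 RPKM in *lmo1*-/- and 9.91 and 10.2 RPKM in *TATA/TATA*, and its log2 fold change was 0.33 (edgeR adjusted p = 0.465). The ratio of *mef2b* to *borcs8* was 0.110, 0.020 and 0.0154 in *lmo1*-/- and 0.176 and 0.219 in *TATA/TATA*, so the 2 rows did not move in a fixed proportion.

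*mef2d* and *mef2aa*, counterparts of the broadly expressed mammalian MEF2D and MEF2A, had the smallest differences between the genotypes among the 5 listed Mef2 factors. *mef2d* had 2.71, 1.48 and 2.45 RPKM in *lmo1*-/- and 4.28 and 4.60 RPKM in *TATA/TATA*, and replicate 2 was the lowest *lmo1*-/- library. Its log2 fold change was 0.56 ± 0.23 SE (edgeR adjusted p = 0.107). With *lmo1*-/- replicate 1 left out it passed (0.75, adjusted p = 0.023), as it did with the authors' library totals (1.00, adjusted p = 0.035).

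*mef2aa* had 0.967, 0.864 and 1.24 RPKM in *lmo1*-/- and 1.68 and 1.63 RPKM in *TATA/TATA*. On the TMM scale its log2 fold change was 0.25 ± 0.23 SE (edgeR adjusted p = 0.442), and with quantile normalization the sign turned (-0.20). The paralog *mef2ab*, outside the list, had 0.657, 0.385 and 0.954 RPKM against 0.787 and 0.821 RPKM. Its groups overlapped, with a log2 fold change of -0.18 ± 0.43 SE in the fit of all genes (edgeR adjusted p = 0.778), and the sign turned with the authors' library totals (0.27) and without *lmo1*-/- replicate 3 (0.092).

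The make-up of the Mef2 family differed between the genotypes. Summed over the 5 Mef2 members, RPKM came to 4.40, 2.60 and 3.94 in *lmo1*-/- and 11.5 and 12.3 in *TATA/TATA*. A share within this sum does not depend on the scaling between libraries. *mef2d* held 60.2% ± 2.79 (SD, n = 3) of it in *lmo1*-/- and 37.3% ± 0.114 (SD, n = 2) in *TATA/TATA*. *mef2aa* held 28.9% ± 6.02 (SD, n = 3) and 13.9% ± 0.915 (SD, n = 2). Those 2 genes made up most of the Mef2 RPKM in *lmo1*-/-, while in *TATA/TATA* they shared it with *mef2cb* and *mef2b*. *mef2cb* went from 3.22% ± 2.00 (SD, n = 3) to 28.4% ± 0.987 (SD, n = 2), and its level relative to *mef2d* was 0.0895, 0.0375 and 0.0322 in *lmo1*-/- and 0.781 and 0.740 in *TATA/TATA*. *mef2b* went from 5.57% ± 3.12 (SD, n = 3) to 16.6% ± 2.02 (SD, n = 2), and *mef2ca* from 2.1% to 3.75%. In shares of raw counts, which favour long transcripts, *mef2d* stood at 80.2% and 54.2%, and *mef2cb* at 2.52% and 24.4%.

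**Figure D2:**
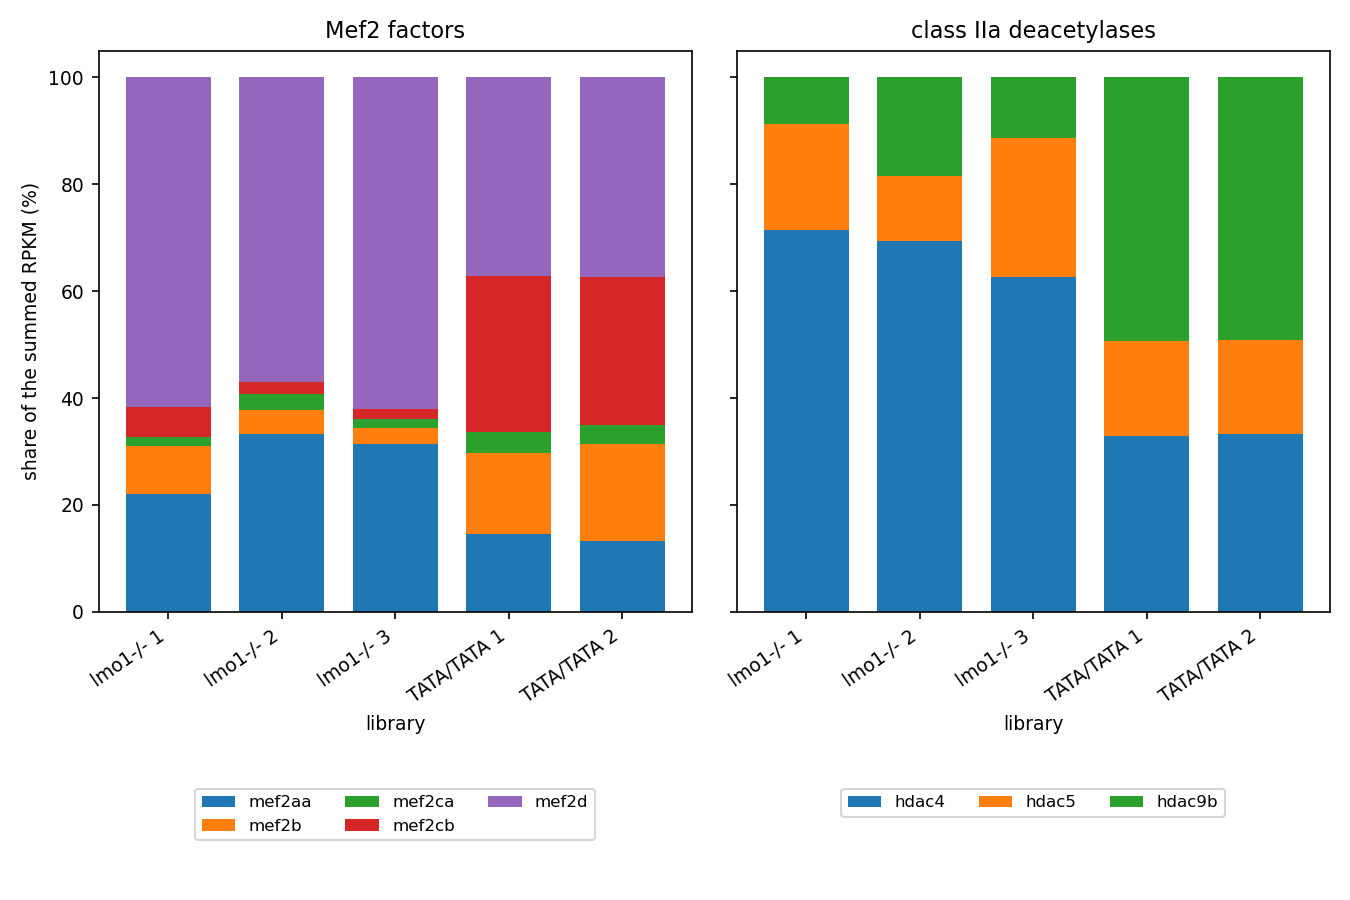
Share of each gene in the summed RPKM of the listed members of its family, in percent, for each library. The 5 Mef2 factors are on the left and the 3 class IIa deacetylases on the right, without the relatives outside the list. In lmo1-/- libraries mef2d holds 57.0% to 62.0% and hdac4 62.6% to 71.5%, whereas in TATA/TATA libraries mef2cb reaches 27.7% to 29.1% and hdac9b 49.1% to 49.3%.

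Among the 3 listed class IIa deacetylases *hdac9b* had the largest difference. It is a counterpart of mammalian HDAC9, which is expressed in muscle, brain and cells of the immune system and also exists as a form that binds Mef2 but has no deacetylase domain. The gene-level counts do not separate such forms. *hdac9b* had 0.170, 0.199 and 0.264 RPKM in *lmo1*-/- and 3.28 and 3.23 RPKM in *TATA/TATA*, from 45, 51 and 77 against 1016 and 961 counts. Libraries within a genotype lay close together and the groups were far apart. The log2 fold change was 3.49 ± 0.24 SE (edgeR adjusted p = 0.0004). It kept its call in all 14 alternatives in which it was tested (1.81 to 3.94).

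*hdac4* and *hdac5*, whose mammalian counterparts restrain chondrocyte and cardiac hypertrophy, respectively, missed the threshold. *hdac4* had 1.39, 0.753 and 1.46 RPKM in *lmo1*-/- and 2.19 RPKM in both *TATA/TATA* libraries (log2 fold change, 0.43 ± 0.26 SE; edgeR adjusted p = 0.245). *hdac5* had 0.386, 0.132 and 0.610 RPKM in *lmo1*-/- and 1.18 and 1.15 RPKM in *TATA/TATA* (1.23 ± 0.51 SE; edgeR adjusted p = 0.112). For both genes replicate 2 was the lowest *lmo1*-/- library. Without *lmo1*-/- replicate 3, *hdac5* passed (1.69, adjusted p = 0.045), whereas under quantile normalization its sign turned (-0.23).

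Outside the list, *HDAC7* had 0.101, 0.0260 and 0.141 RPKM in *lmo1*-/- and 1.2 and 1.52 RPKM in *TATA/TATA*, from 20, 5 and 31 against 279 and 340 counts. Mammalian HDAC7 is the class IIa member of endothelium and developing lymphocytes. The log2 fold change of *HDAC7* was 3.50 ± 0.56 SE (edgeR adjusted p = 0.0051), a fitted fold of 11.3 beside the 11.2 of *hdac9b*. *hdac7b* was weaker, with 0.123, 0.0342 and 0.0557 RPKM against 0.403 and 0.467 RPKM. In the fit of all genes its log2 fold change was 2.12 ± 0.61 SE (edgeR adjusted p = 0.039), a call lost without *lmo1*-/- replicate 2 (adjusted p = 0.079), *TATA/TATA* replicate 1 (0.214) or *TATA/TATA* replicate 2 (0.287). Its log2 fold change was 2.78 without *lmo1*-/- replicate 1.

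The summed RPKM of *hdac4*, *hdac5* and *hdac9b* was 1.95, 1.08 and 2.34 in *lmo1*-/- and 6.64 and 6.58 in *TATA/TATA*. *hdac4* held 67.9% ± 4.65 (SD, n = 3) of it in *lmo1*-/- and 33.2% ± 0.258 (SD, n = 2) in *TATA/TATA*. *hdac9b* held 12.8% ± 5.0 (SD, n = 3) and 49.2% ± 0.126 (SD, n = 2), so that the leading class IIa transcript was *hdac4* in all 3 *lmo1*-/- libraries and *hdac9b* in both *TATA/TATA* libraries. The share of *hdac5* was 19.3% ± 6.99 (SD, n = 3) and 17.6% ± 0.132 (SD, n = 2), a difference smaller than the spread in *lmo1*-/-. With *HDAC7* and *hdac7b* added to the sum, *hdac4* held a mean of 62.6% in *lmo1*-/- and 26.1% in *TATA/TATA*. *hdac9b* then held 11.9% and 38.7%, and *HDAC7* 4.16% and 16.1%. The ratio of *hdac9b* to *hdac4* was 0.122, 0.265 and 0.180 in *lmo1*-/- and 1.5 and 1.47 in *TATA/TATA*. In contrast, the ratio of *mef2d* to *hdac4*, the leading genes of the 2 families in *lmo1*-/-, was 1.95, 1.97 and 1.67 in *lmo1*-/- and 1.95 and 2.1 in *TATA/TATA*, with overlapping ranges.

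**Figure D3:**
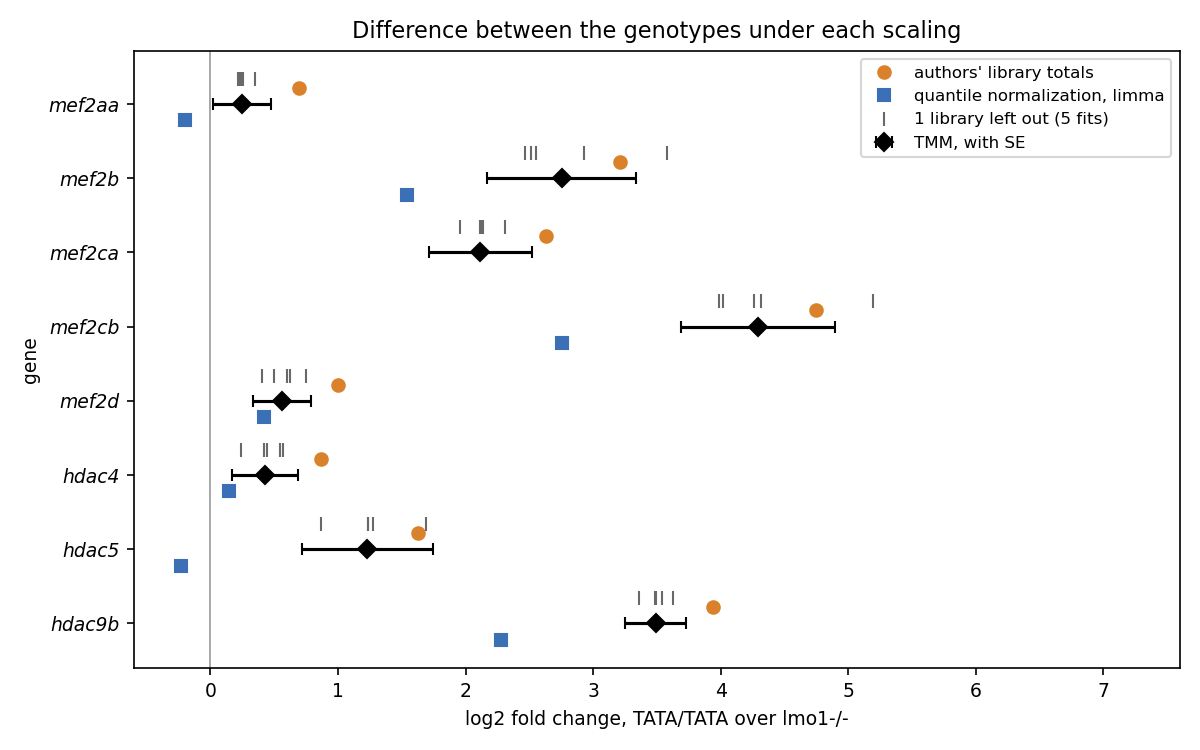
Log2 fold change of TATA/TATA over lmo1-/- for the 8 genes, with TMM scaling and its SE (diamonds), the authors' library totals (circles), quantile normalization with limma (squares, tested genes only) and each library left out in turn (ticks). mef2cb, hdac9b and mef2b lie above 1 under every setting, whereas mef2aa and hdac5 fall below 0 with quantile normalization (-0.20 and -0.23).

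In summed RPKM, markers of some other cell types were also higher in *TATA/TATA*, whereas those of muscle and erythroid cells were not. In bulk samples, fewer cells of a type and less RNA per cell cannot be told apart. Of 19 macrophage markers 17 rose and the remaining 2 had log2 fold changes in the same direction, with a median of 3.76 (1.99 to 5.88). Their summed RPKM was 139, 111 and 200 in *lmo1*-/- and 2802 and 2925 in *TATA/TATA*, with no marker at 0 in either genotype. *cd74a*, the invariant chain of antigen presentation and the most abundant of them, went from a mean of 66.1 to 1315 RPKM. Of the macrophage markers that rose, *mpeg1.2*, *csf1rb*, *cxcr3.2* and *slc7a7* reached the filter only through *TATA/TATA*. Across all tested genes 19.9% rose. Relative to the *TATA/TATA* mean, macrophage markers stood at 3.86% to 6.97% in the *lmo1*-/- libraries, *hdac9b* at 5.24% to 8.11%, *mef2cb* at 1.65% to 7.20% and *HDAC7* at 1.91% to 10.4%. *mef2b* stood at 5.88% to 20.2% and *mef2ca* at 13.4% to 18.2%. The order of the libraries differed. Replicate 3 was the highest *lmo1*-/- library for macrophage markers, *hdac9b* and *HDAC7*, replicate 1 for *mef2cb* and *mef2b*, and replicate 2 for *mef2ca*. Lymphoid markers stood at 17.3% to 20.2%, and Schwann and neural crest markers at 12.4% to 18.7%. The most abundant lymphoid markers in *lmo1*-/-, *rag2* and *ebf1a*, did not rise, so the lymphoid sum does not give the level of the lymphoid genes that rose. The part of macrophage RNA in the levels of these genes was not tested.

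Lymphoid markers had a summed RPKM of 5.53 to 6.44 in *lmo1*-/- and of 30.2 and 33.6 in *TATA/TATA*. Of 6 tested genes 4 rose, beside 19.9% of all tested genes. All 4 reached the filter only through *TATA/TATA*. They included *cd4-1*, a T helper and myeloid gene, which rose from a mean of 0.249 to 10.9 RPKM (log2 fold change, 5.0, and 5.71 without *lmo1*-/- replicate 1; edgeR adjusted p = 0.0013). The 2 tested genes that did not rise, *rag2* and *ebf1a*, were the most abundant lymphoid markers in each *lmo1*-/- library. *rag2* had 2.46, 2.21 and 2.59 RPKM against 2.22 and 2.69 RPKM, and *ebf1a* had 1.54, 2.02 and 2.77 RPKM against 3.16 and 2.75 RPKM. The B-cell markers *pax5* and *ighz* were at 0 in all 5 libraries, and *cd79b* was at 0 in *lmo1*-/- and at 0.031 and 0.032 RPKM in *TATA/TATA*. Another B-cell marker, *cd79a*, had 0, 0.114 and 0 RPKM in *lmo1*-/- and 0.283 and 0.610 RPKM in *TATA/TATA*. Neutrophil markers rose for 5 of 8 tested genes, of which *mpx*, *mmp13a* and *mmp25b* reached the filter only through *TATA/TATA*. The summed RPKM of the neutrophil markers was 23.6, 48.4 and 140 in *lmo1*-/- and 167 and 176 in *TATA/TATA*, so that *lmo1*-/- replicate 3 came close to *TATA/TATA*. *lyz*, lysozyme, the most abundant of them, had 11.6, 24.9 and 75.5 RPKM against 83.2 and 87.9 RPKM (edgeR adjusted p = 0.379, and 0.035 without *lmo1*-/- replicate 3).

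Among non-blood markers, endothelial genes summed to 1.23 to 2.1 RPKM in *lmo1*-/- and 5.52 and 5.97 RPKM in *TATA/TATA*. The 1 tested gene, the endothelial receptor *tie1*, rose from a mean of 0.178 to 2.82 RPKM (log2 fold change, 3.58, and 4.25 without *lmo1*-/- replicate 3) and reached the filter only through *TATA/TATA*. *tek*, another endothelial receptor, had 0.989, 0.710 and 0.438 RPKM against 0.943 and 1.06 RPKM. *fli1a*, which was not tested, had 0.166, 0.112 and 0.180 RPKM against 0.967 and 1.06 RPKM. Other endothelial markers were near 0 in both genotypes and went both ways. Mean RPKM was 0.0423 and 0.0674 for *kdrl*, 0.0227 and 0.0506 for *pecam1*, 0.0954 and 0.0597 for *cdh5*, and 0.0616 and 0.0397 for *flt1*. Fibroblast markers summed to 4.55 to 9.91 RPKM against 16.2 and 16.6 RPKM, with 1 of 3 tested genes up. This was *col1a1b*, which reached the filter only through *TATA/TATA*. *mmp2*, a matrix protease and the most abundant of the fibroblast markers, did not pass (mean, 4.54 and 4.94 RPKM, edgeR adjusted p = 0.631). Schwann and neural crest markers summed to 0.654 to 0.992 RPKM against 4.72 and 5.86 RPKM. Of the 12 markers 2 were tested, and both passed the filter only through *TATA/TATA*. *egr2b*, a transcription factor of the hindbrain and of myelinating Schwann cells, had 0.0069, 0.0143 and 0 RPKM against 2.29 and 3.99 RPKM, and *erbb3b*, a neuregulin receptor, had 0.0098, 0.0034 and 0.0059 RPKM against 1.43 and 1.15 RPKM. The defining markers *sox10*, *foxd3* and *plp1a* were at or near 0 in all 5 libraries, and the myelin gene *mpz* had 0.369, 0.439 and 0.608 RPKM against 0.319 and 0.25 RPKM.

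Markers of muscle, the classical site of Mef2 action, did not rise with the Mef2 genes. They summed to 4.13, 5.06 and 7.77 RPKM in *lmo1*-/- and 3.94 and 4.23 RPKM in *TATA/TATA*. Of the 21 muscle markers 3 were tested and 1 fell, *ckmb*, which reached the filter only through *lmo1*-/-. *myod1*, *myf5* and *myog*, the myogenic determination and differentiation factors, were at 0 in all 5 libraries. The intermediate filament gene *desma*, the most abundant of them, had 1.70, 2.09 and 4.48 RPKM against 2.18 and 2.2 RPKM. Erythroid markers summed to 49.0 to 59.1 RPKM in *lmo1*-/- and 34.3 and 36.8 RPKM in *TATA/TATA*. Of 5 tested, 0 rose and 3 fell, among them the β-globin gene *hbba1* (log2 fold change, -1.56, edgeR adjusted p = 0.0016). *hbaa2*, which also fell, reached the filter only through *lmo1*-/-. Some untested erythroid markers lay higher in *TATA/TATA*, such as *gata1a*, with 0.159, 0.00745 and 0.00654 RPKM against 1.05 and 0.860 RPKM. Sympathoadrenal markers summed to 1968, 1811 and 2655 RPKM against 1706 and 1606 RPKM, with 3 of 21 tested genes up, 5 down and a median log2 fold change of -0.23. Named after their values were seen, those up were *insm1a* (log2 fold change, 2.91), *stmn2b* (1.63) and *ret* (1.25). *insm1a* had 6.56, 3.88 and 27.0 RPKM in *lmo1*-/- against 123 and 117 RPKM. Those down were *slc18a2* (-2.12), *slc6a2* (-1.70), *hand2* (-1.40), *dbh* and *th*. Without *TATA/TATA* replicate 1 or 2, fewer genes passed in several of these lists, 3 in each case for neutrophil, 1 for erythroid and 2 for sympathoadrenal markers, and the single calls among fibroblast and muscle markers were lost.

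**Figure D4:**
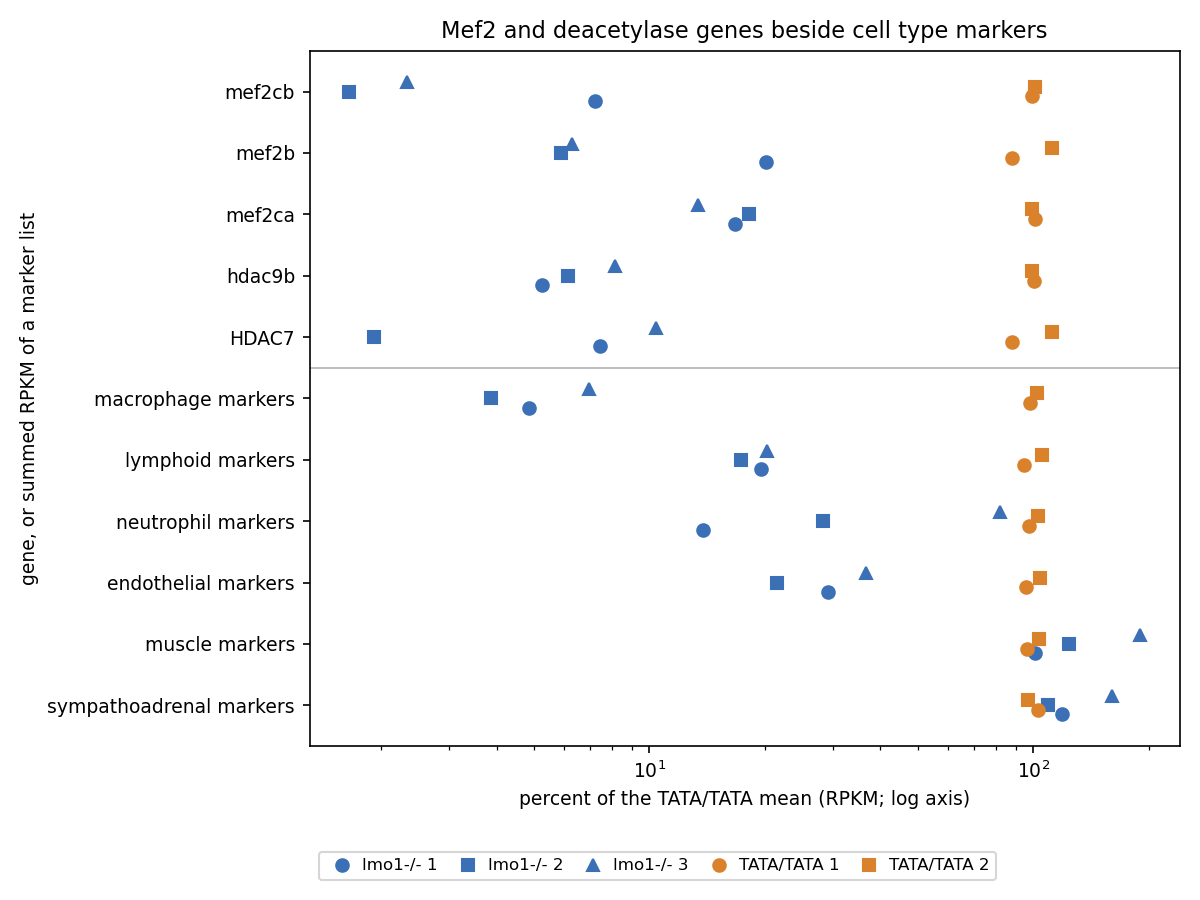
Level of 5 genes and summed RPKM of 6 marker lists in each library, as percent of the TATA/TATA mean, on a log axis. In the lmo1-/- libraries mef2cb, hdac9b and HDAC7 lie at 1.65% to 10.4% and macrophage markers at 3.86% to 6.97%. mef2b lies at 5.88% to 20.2%, mef2ca at 13.4% to 18.2% and lymphoid markers at 17.3% to 20.2%. The lymphoid sum includes rag2 and ebf1a, its most abundant genes in lmo1-/-, which did not rise. Muscle and sympathoadrenal markers lie at 101% to 190%.

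For each member that rose, the 3 tested genes with the most similar pattern over the 5 libraries were taken, as the smallest root mean square difference of centred log2 CPM. Those of *hdac9b* were *si:ch73-299h12.9* (0.0688), *fcer1gl* (0.0757) and *clic1* (0.0908). The nearest, *si:ch73-299h12.9*, had 2.00, 2.46 and 2.84 RPKM in *lmo1*-/- and 36.9 and 38.1 RPKM in *TATA/TATA*. *fcer1gl*, related to the Fc receptor γ chain of myeloid cells, had 5.27, 5.88 and 8.90 RPKM in *lmo1*-/- and 90.3 and 94.0 RPKM in *TATA/TATA*. The genes nearest to *mef2cb* were *syce2* (0.0736), *dfna5a* (0.113) and *cd180* (0.115). Of these *syce2* had 0.124, 0 and 0 RPKM in *lmo1*-/- against 2.19 and 2.51 RPKM in *TATA/TATA*. *cd180*, whose mammalian counterpart is a Toll-like receptor homolog of B cells and myeloid cells, had 0.106, 0.0137 and 0.0240 RPKM against 1.74 and 1.61 RPKM. Replicate 1 was the highest of the *lmo1*-/- libraries for *cd180* as for *mef2cb*, a likeness built in by its choice on pattern. The genes nearest to *mef2b* were further off, *nkl.3* (0.140), *orai1a* (0.199) and *kazna* (0.202). The first, *nkl.3*, had 0.531, 0.174 and 0.153 RPKM in *lmo1*-/- against 2.90 and 4.09 RPKM in *TATA/TATA*. *orai1a* encodes a subunit of the store-operated calcium channel and had 0.283, 0.0673 and 0.110 RPKM against 1.18 and 1.37 RPKM. Over 5 libraries any gene with a like difference between the genotypes scores as alike.

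The counts of this and the pathway lists that follow stand beside 19.9% of all tested genes that rose and 16.7% that fell. Of the 6 deacetylases of classes I, IIb and IV, 1 rose, and their median log2 fold change was 0.09. It was *hdac10*, a polyamine deacetylase, with 7.11, 4.86 and 4.74 RPKM in *lmo1*-/- and 14.3 and 14.2 RPKM in *TATA/TATA* (0.89; edgeR adjusted p = 0.032). The call was lost without *lmo1*-/- replicate 2 (adjusted p = 0.087) or either *TATA/TATA* library (0.162 and 0.170). The most abundant of them, *hdac1*, had a mean of 80.8 and 108 RPKM and a log2 fold change of -0.03 (edgeR adjusted p = 0.877), which turned to 0.42 with the authors' library totals. *hdac3*, which provides the deacetylase activity of the class IIa complex, had 8.53, 10.6 and 11.4 RPKM against 18.8 RPKM in both *TATA/TATA* libraries (0.42; edgeR adjusted p = 0.132).

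Of 10 tested corepressor partners of the class IIa proteins, 1 rose and 2 fell, with a median of 0.32. *tbl1x*, a subunit of the NCoR complex, rose from a mean of 1.69 to 3.81 RPKM (0.71; edgeR adjusted p = 0.031). *gps2*, another subunit of that complex, fell (-0.91; edgeR adjusted p = 0.0063), as did the corepressor *ctbp2a* (-0.54; adjusted p = 0.034). With the authors' library totals neither *gps2* (-0.46, adjusted p = 0.126) nor *ctbp2a* (-0.091, adjusted p = 0.77) passed. All 3 calls were lost when either *TATA/TATA* library was left out, that of *tbl1x* also without *lmo1*-/- replicate 2 (adjusted p = 0.057) and that of *ctbp2a* without *lmo1*-/- replicate 3 (0.092), whereas 6 of the 10 passed without *lmo1*-/- replicate 1. In that last fit 6456 of all 13484 tested genes passed, against 4933 with all libraries, so nothing is read from the 6. *ctbp1*, the most abundant, had a mean of 20.3 and 32.2 RPKM (edgeR adjusted p = 0.526). The scaffold *ncor1* did not pass (-0.83; edgeR adjusted p = 0.072).

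Kinases that phosphorylate class IIa deacetylases moved both ways. Of 17 tested, 1 rose and 4 fell (median, -0.07), beside 19.9% and 16.7% of all tested genes. *camk1db* reached the filter only through *TATA/TATA* and *prkd1* only through *lmo1*-/-, so the filter bears on these counts. The calcium/calmodulin-dependent kinase *camk1db* rose, from 0.157, 0.0342 and 0.120 RPKM to 1.12 and 1.38 RPKM (3.15; edgeR adjusted p = 0.0073). *camk4*, a kinase of neurons and T cells in mammals, fell from 4.70, 4.94 and 2.93 RPKM to 1.25 and 1.5 RPKM (-2.1; edgeR adjusted p = 0.0079). *prkd1*, a protein kinase D, had 1.12, 0.289 and 5.74 RPKM against 0.0850 and 0.0682 RPKM (-5.28; edgeR adjusted p = 0.025), with *lmo1*-/- replicate 3 far above the others. Without that library its log2 fold change was -3.65 (adjusted p = 0.014). *camk2g2*, the most abundant kinase, fell from a mean of 21.4 to 16.5 RPKM (-0.82; edgeR adjusted p = 0.013), a call lost with the authors' library totals (adjusted p = 0.254). The fourth was *camk2b1* (-0.57; adjusted p = 0.043), named after its values were seen, whose call was lost with the authors' library totals (adjusted p = 0.708) and without *lmo1*-/- replicate 3 (0.075). All 5 calls were lost when either *TATA/TATA* replicate 1 or replicate 2 was left out.

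Of 10 tested 14-3-3 genes, 1 fell and the median was 0.03. It was *ywhag1*, with 12.5, 4.33 and 4.13 RPKM in *lmo1*-/- and 1.05 and 1.21 RPKM in *TATA/TATA* (-3.09, and -2.37 without *lmo1*-/- replicate 1; edgeR adjusted p = 0.011). *ywhaz*, the most abundant, had a mean of 205 and 241 RPKM (-0.23; edgeR adjusted p = 0.363, and 0.23 with the authors' library totals). Left without *TATA/TATA* replicate 1 or 2, *ywhag1* no longer passed (adjusted p = 0.074 and 0.063), and without *lmo1*-/- replicate 1, 2 of the genes did. With the authors' library totals 5 of the 10 passed, 4 of them higher in *TATA/TATA*. Of all 13484 tested genes 4875 passed with these totals, and 82.2% of those were higher in *TATA/TATA*.

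Enzymes and coactivators that activate Mef2 were tested for 16 genes, of which 1 rose and 1 fell (median, 0.25). The 1 that rose, *nfatc3b*, reached the filter only through *TATA/TATA*, so the filter bears on this count. *nfatc3b*, a calcineurin-dependent transcription factor that cooperates with Mef2, rose from 0.227, 0.179 and 0.120 RPKM to 1.70 and 1.73 RPKM (2.81; edgeR adjusted p = 0.0029) and kept its call in all 14 alternatives in which it was tested. The calcineurin subunit *ppp3r1b* fell from a mean of 21.4 to 17.5 RPKM (-0.75; edgeR adjusted p = 0.022), but not with the authors' library totals (adjusted p = 0.297) or without either *TATA/TATA* library (0.16 and 0.2). *mapk14a*, a p38 kinase that phosphorylates Mef2 and the most abundant of them, had 20.3 and 26.1 RPKM (-0.10; edgeR adjusted p = 0.629, and 0.36 with the authors' library totals). Without *lmo1*-/- replicate 1, 9 of the 16 passed, beside 6456 of all 13484 tested genes.

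Of 12 tested genes known as MEF2 targets in mammals, 5 rose and 2 fell, with a median log2 fold change of 2.11. All 7 reached the filter only through the genotype in which they are high, and 8 of the 20 listed targets were not tested, so the filter bears on this count and median. The immediate early nuclear receptor *nr4a1* had 0.844, 0.633 and 2.30 RPKM in *lmo1*-/- and 44.5 and 92.6 RPKM in *TATA/TATA* (5.37, with 6.04 without *lmo1*-/- replicate 3 and 4.73 without *TATA/TATA* replicate 2; edgeR adjusted p = 0.0015). Its relative *nr4a3* rose as well (3.29; edgeR adjusted p = 0.032), but not without *lmo1*-/- replicate 1 or 2 (adjusted p = 0.056 and 0.080) or either *TATA/TATA* library (0.105 and 0.121). Without *lmo1*-/- replicate 3 its log2 fold change was 5.08. The other genes that rose, named after their values were seen, were the Krüppel-like factors *klf6a* (3.09) and *klf2b* (2.93) and the mitochondrial coactivator *ppargc1a* (3.05). The muscle creatine kinase *ckmb* fell (-3.11; edgeR adjusted p = 0.016, and 0.103 and 0.116 without each *TATA/TATA* library). The synaptic scaffold *homer1b* fell from 2.38, 2.47 and 2.84 RPKM to 0.776 and 0.701 RPKM (-2.25; edgeR adjusted p = 0.00089). *jun*, the most abundant, had 149, 24.7 and 63.8 RPKM against 202 and 231 RPKM (1.02; edgeR adjusted p = 0.265). It passed without *lmo1*-/- replicate 1 (1.90, adjusted p = 0.018). Macrophage and lymphoid markers were high in the same libraries, and their part in these values was not tested.

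**Figure D5:**
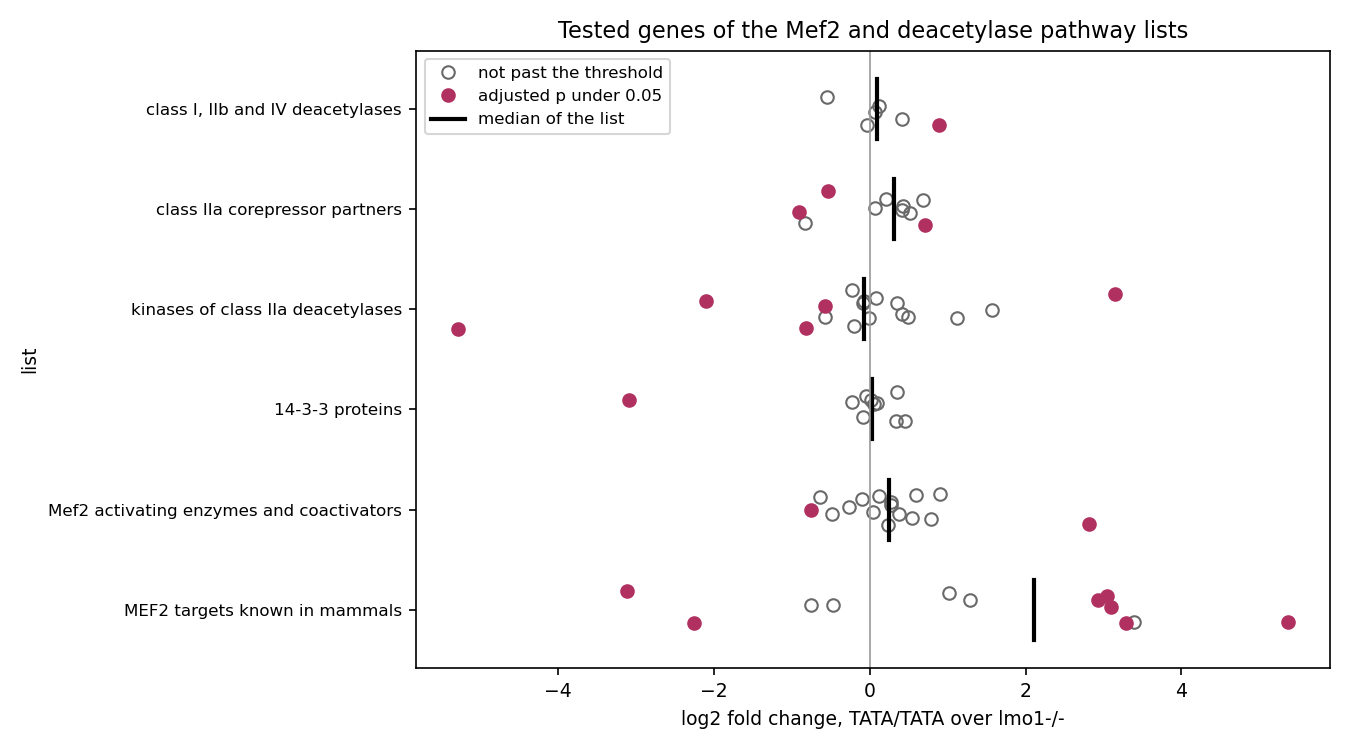
Log2 fold change of TATA/TATA over lmo1-/- for every tested gene of 6 lists, filled where the edgeR adjusted p is under 0.05, with a bar at the median of each list. Medians lie between -0.07 and 0.32 for 5 lists and at 2.11 for the MEF2 targets, which hold 5 genes that rose and 2 that fell.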

How the data were processed

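Ribosome-depleted, strand-specific RNA-Seq of 3 *lmo1*-/- and 2 *TATA/TATA* libraries was analysed. The authors aligned paired-end reads to danRer10 (GRCz10) with HISAT2 2.1.0 and made raw counts with htseq-count on Ensembl gene names, using strand and intersection-strict mode, and reads shared by near-identical paralogs may go uncounted. The authors' deposited RPKM divides each count by the exon length of the gene name and by mapped reads. The sequencer is given as NextSeq in the labels and as HiSeq in the study's methods.

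Counts were fitted with edgeR 4.0.16 (TMM, quasi-likelihood F-test, no covariate) in R 4.3.3 for the 13484 genes that reached 1 RPKM in 2 or more libraries. Weaker genes took their values from a second fit, of the 25459 genes with any count. Benjamini-Hochberg adjustment ran over all genes fitted, at a threshold of 0.05, and SE was derived from the log2 fold change and F. Shares and ratios were taken within libraries, without a test. Likeness used log2(CPM + 0.1). Precision is set by the counts given beside weak genes and by the number of libraries. The fits were tested on simulated data.

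The members and lists were chosen with earlier results of these data known. Named were the members, the 2 largest changes in each direction and the most abundant gene of each pathway list, the most abundant of each marker list, *lmo1*, and 3 genes of like pattern for each member that rose. Alternatives were median-ratio scaling, the authors' library totals, DESeq2 1.42.0, limma 3.58.1 on log2(RPKM + 0.1) and log2(RPKM + 1), no filter, a mean of at least 5 RPKM, a block for the replicate number, and leaving out each library in turn. Fits with 1 library left out kept the filter computed on all 5 libraries. Genes such as *mef2cb* and *hdac9b*, which reached it only through *TATA/TATA*, thus stayed tested with a *TATA/TATA* library left out. Quantile normalization and leaving out ribosomal protein genes before TMM were added after seeing the data. No sequence or coordinate is given, since no genome of this build was used here.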

Additional observations from a re-analysis of the deposited data

How the results depend on the processing

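Of all tested genes 4933 were called, and of the members 3. The calls fell to 1828 genes with a mean of at least 5 RPKM, a level no member reached, so members have no value there. Leaving out 1 library gave 1851 to 6456 genes (1954 and 1851 without *TATA/TATA* replicate 1 and 2) and 2 to 4 members. With 1 *TATA/TATA* library left, it was assumed to vary like the *lmo1*-/- libraries. limma on log2(RPKM + 0.1) called 5 members and 5214 of the 13484 tested genes, and on log2(RPKM + 1) it called 7 members and 5522 genes. These scalings use the authors' totals, which lift the median of all genes from -0.05 to 0.41 and the share of calls that are higher in *TATA/TATA* from 54.3% to 82.2%, against 43.6% with quantile normalization. DESeq2 called 3 members and 5800 genes.

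The replicate block called 5334 genes and 4 members, adding *hdac5* (log2 fold change, 1.78; adjusted p = 0.00033). The numbers are shared by 2 pairs of libraries, whose deviations did not correlate (r = 0.018 and -0.018 across genes), so they are not known to pair samples.

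Signs turned with quantile normalization for *mef2aa* (-0.20) and *hdac5* (-0.23). With the authors' totals, limma + 0.1 and limma + 1, they turned for *hdac1* (0.42, 0.43 and 0.42), *ywhaz* (0.23, 0.24 and 0.24), *mapk14a* (0.36, 0.36 and 0.35) and *mmp2* (0.12, 0.30 and 0.22). *hdac1* also turned with a mean of at least 5 RPKM (0.047), and *mef2ab* with the authors' totals (0.27). Leaving out each library gave -0.058 to 0.00089 for *hdac1*, positive without *lmo1*-/- replicate 1, -0.74 to 0.39 for *mmp2*, positive without replicate 2, and -0.40 to 0.092 for *mef2ab*, positive without replicate 3. None of these genes passed the threshold in a setting that turned its own sign. The cause of the turns was not tested. In settings that kept the sign, *mef2aa* passed with limma on log2(RPKM + 1) (0.40, limma adjusted p = 0.047). *hdac5* passed, among others, without *lmo1*-/- replicate 3 (1.69, edgeR adjusted p = 0.045).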
